A study of Mus musculus with 6 samples.

Results

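The 6 genes followed in this single-cell data set encode inhibitory receptors, namely Pdcd1 (PD-1), Lag3, Havcr2 (TIM-3), Cd160, Cd200r1 and Btla. They were chosen by name as receptors linked to T cell exhaustion, and all 6 were present among the 31053 genes of the count table. CT26, a mouse colon carcinoma line, was grown under the skin of wild-type Balb/c female mice that were 5 to 6 weeks old when obtained, and CD45+ cells were enriched with beads from tumors taken 5 days after treatment. The 6 samples were labeled as 2 vehicle, 2 low-dose and 2 high-dose samples of an antibody-based bispecific that joins a PD-1-binding part to the ligand of GITR, and the low dose stood as 30 mg per kg in one label and as 10 mg per kg in another. The cells carried 4 library names (M1, M2, M5 and M6) that matched no sample label, so values were given by library, as a range over the 4 libraries or pooled over all cells of a label, and treatments were not compared. The treatment behind each library is not known here, so a range over libraries can include differences between treated and untreated tumors. Each cell also carried 1 of 12 cell labels that the authors had assigned from the closest reference profile.

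Exhaustion is a state that T cells enter under persistent antigen, in which several inhibitory receptors are kept on the surface together. PD-1 binds PD-L1 and PD-L2 and recruits phosphatases that dampen T cell receptor and CD28 signaling, LAG-3 is related to CD4 and binds MHC class II, and TIM-3 binds several ligands, galectin-9 among them. CD160 and BTLA share the ligand HVEM, and CD200R1 is the receptor for CD200 and is best known from myeloid cells. None of the 6 is confined to T cells: TIM-3 and BTLA are known from dendritic cells, BTLA from B cells, and CD160 from natural killer (NK) and related innate lymphocytes.

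The genes lie on 5 chromosomes in the GRCm38 build (GENCODE annotation). Pdcd1 spans chr1:94038305-94052553 on the minus strand, Lag3 chr6:124904361-124911705 on the minus strand, Havcr2 chr11:46454935-46481255 on the plus strand and Cd160 chr3:96798763-96829351 on the minus strand. Cd200r1 (chr16:44765736-44794978) and Btla (chr16:45224315-45257670) share the plus strand of chromosome 16, 429 kb apart, and Lag3 lies 16.1 kb from Cd4. Only Cd160 overlapped another annotated gene, Pdzk1 on the opposite strand.

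Promoter windows (250 bases before to 50 bases after the gene start, RefSeq on GRCm38.p6) were found for Pdcd1, Havcr2, Btla and Cd160. The windows of Pdcd1, Havcr2 and Btla are shown as examples of a gene that was highest in effector T cells (Pdcd1), in dendritic cells (Btla), and in effector T cells with dendritic cells next (Havcr2). Capitals mark matches, on either strand, to any of 9 motifs: AP-1 (TGANTCA), NFAT (TGGAAA), the NR4A element (AAAGGTCA), T-box (GGTGTGA), TCF (CTTTGAA), RUNX (TGTGGTTN), GAS (TTCNNNGAA), PU.1 (GAGGAAGT) and IRF (GAAA repeated after a gap of 2 bases). The windows are chr1:94052504-94052803 (minus strand) for Pdcd1, chr11:46454681-46454980 (plus strand) for Havcr2 and chr16:45224087-45224386 (plus strand) for Btla.
Pdcd1: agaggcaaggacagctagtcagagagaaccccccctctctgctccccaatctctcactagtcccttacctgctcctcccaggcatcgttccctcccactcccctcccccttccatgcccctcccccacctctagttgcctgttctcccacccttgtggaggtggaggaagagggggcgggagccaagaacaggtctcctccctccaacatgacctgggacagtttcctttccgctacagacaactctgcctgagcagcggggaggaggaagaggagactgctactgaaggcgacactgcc
Havcr2: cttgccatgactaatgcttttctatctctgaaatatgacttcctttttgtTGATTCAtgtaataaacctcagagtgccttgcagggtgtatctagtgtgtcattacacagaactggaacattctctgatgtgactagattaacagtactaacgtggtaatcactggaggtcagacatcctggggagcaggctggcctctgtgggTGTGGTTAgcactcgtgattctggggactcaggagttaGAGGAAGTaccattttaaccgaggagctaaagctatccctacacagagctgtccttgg
Btla: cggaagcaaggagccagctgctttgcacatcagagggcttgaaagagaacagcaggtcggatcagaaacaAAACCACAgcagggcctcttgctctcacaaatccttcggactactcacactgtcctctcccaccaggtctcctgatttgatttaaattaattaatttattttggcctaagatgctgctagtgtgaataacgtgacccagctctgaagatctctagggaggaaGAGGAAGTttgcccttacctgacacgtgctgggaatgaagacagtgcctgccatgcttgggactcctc

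None of these motif spellings occurred in the Pdcd1 window. The Havcr2 window held AP-1 at position -200, RUNX at -46 and PU.1 at -8 from the gene start, and the Btla window held RUNX at -180 and PU.1 at -18. The PU.1 letters occurred in 3.2% of 32851 promoter windows, the RUNX letters in 5.24% and the AP-1 letters in 7.81%. Of the 2 Cd160 windows, that at chr3:96829302-96829601 held RUNX, and that at chr3:96814472-96814771 held GAS, T-box and RUNX once each and TCF on both strands. A match is a description of the letters and does not show binding.

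The table held 33961 cells and 915317050 unique molecular identifiers (UMIs, each counting one captured transcript molecule). Per library there were 7160 to 10294 cells with a median of 11399 to 21800 UMIs, and 111 barcodes occurred in more than one library. Although CD45+ cells had been enriched, 15687 cells were labeled Stroma. T cell EFF held 3633 cells, T cell MEM 1179, NKT 781, T cells 203 and T cell Naive 55, and the summed level of 5 T cell markers was 4070 to 5445 CPM in these 5 labels. The same markers summed to 1098 CPM in ILC, 789 CPM in Myeloid, 420 CPM in NK cells, 321 CPM in DC and 17.6 CPM in Stroma, so several labels of other lineages also carried T cell transcripts. Regulatory T cell markers were highest in T cells (2553 CPM) and NKT (2527 CPM), which bears on those names.

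Levels are given as CPM, UMIs of a gene scaled to the same total in every label and pooled over its cells, and because the libraries counted 3′ ends they do not scale with transcript length. Of the 6 receptors, 4 were highest in T cell EFF, namely Pdcd1, Lag3, Havcr2 and Cd160. Cd200r1 was highest in NKT with Myeloid next, and Btla was highest in DC with B cells next. T cells of the 5 labels carried 78.4% of all Pdcd1 UMIs, 63.8% of Lag3, 51.6% of Havcr2, 46.6% of Cd160, 31.6% of Cd200r1 and 28.1% of Btla.

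**Figure D1:**
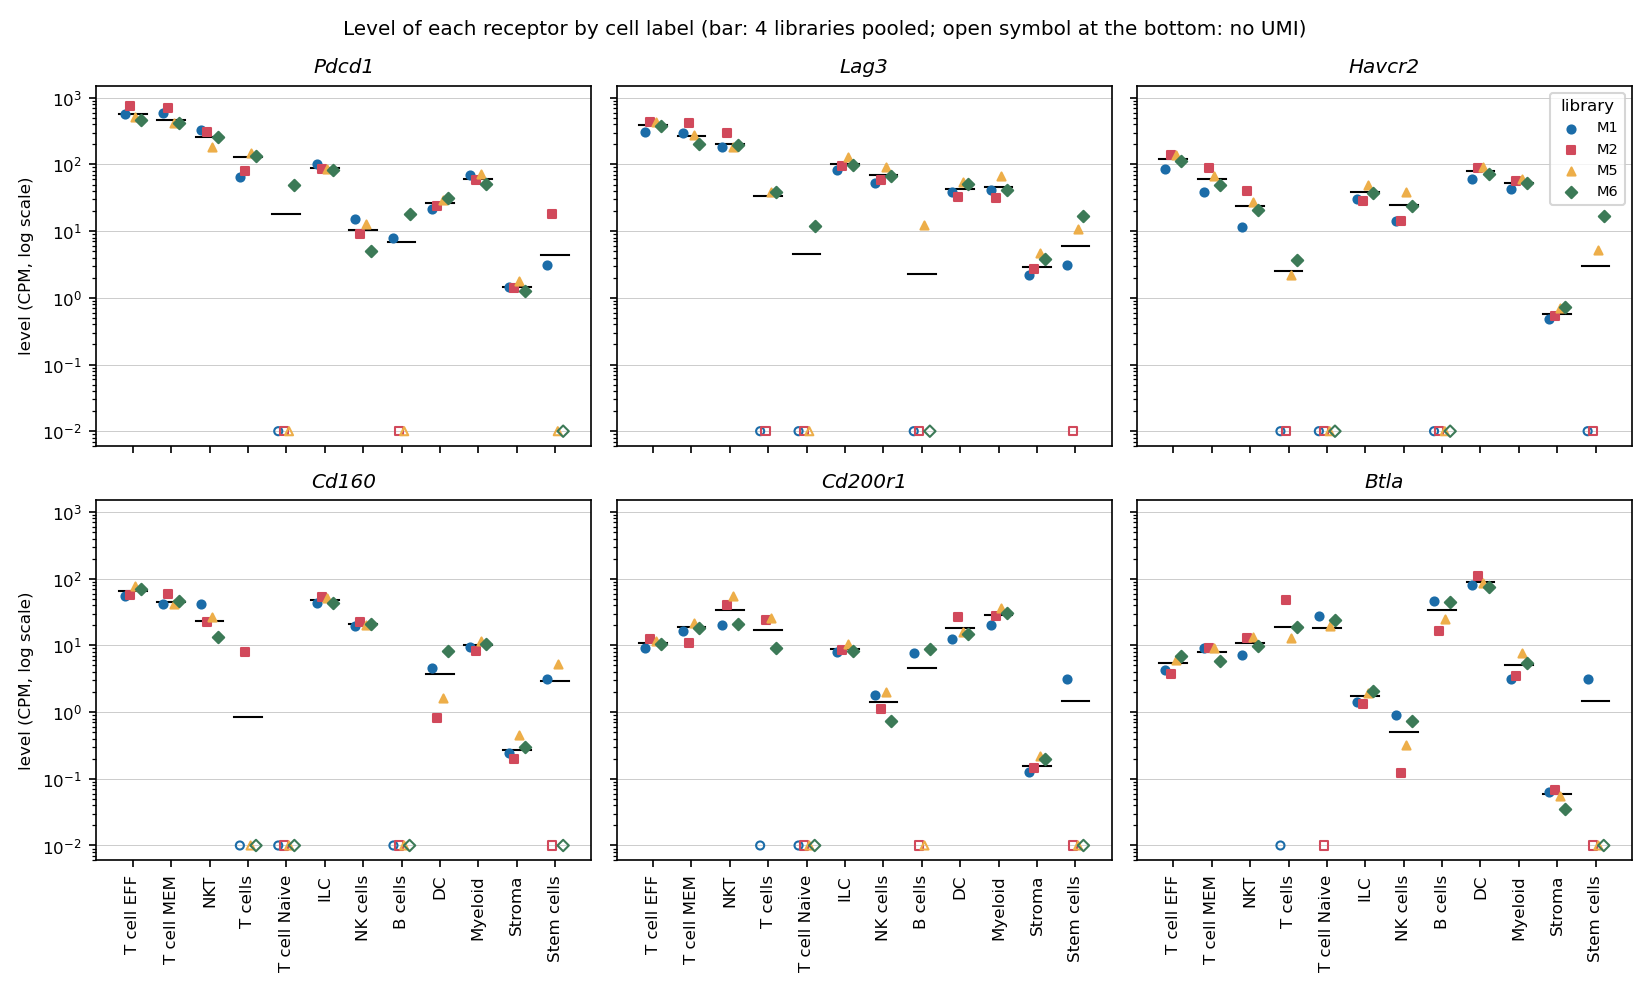
Level of each receptor (CPM, log scale) in the 12 cell labels, with 1 symbol per library and a bar for the 4 libraries pooled, open symbols marking libraries without a UMI. The pooled levels of Pdcd1, Lag3, Havcr2 and Cd160 peak at T cell EFF (T cell MEM is higher in M1 for Pdcd1 and in M2 for Cd160), Cd200r1 at NKT and Myeloid, and Btla at DC.

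In T cell EFF, Pdcd1 reached 563 CPM (M1), 764 CPM (M2), 515 CPM (M5) and 468 CPM (M6). The pooled level was 567 CPM in T cell EFF and 468 CPM in T cell MEM, and the library ranges of these labels overlapped, with T cell MEM the higher in M1. NKT followed at 254 CPM and T cells at 130 CPM, each below its predecessor in every library range. ILC (87.6 CPM) overlapped T cells, Myeloid stood at 61.2 CPM, NK cells at 10.3 CPM and Stroma at 1.45 CPM. M2 was the highest library in T cell EFF and T cell MEM alike.

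Lag3 was at 306, 428, 440 and 377 CPM in T cell EFF of M1, M2, M5 and M6. T cell MEM had 269 CPM and NKT 203 CPM, with overlapping library ranges along this order. T cell EFF was above T cell MEM within each library, but hardly in M1 (306 and 300 CPM) and M2 (428 and 421 CPM). In M1 and M2 the counting intervals overlapped. A gap followed, since NKT was above ILC (102 CPM) without overlap. NK cells had 69.8 CPM, Myeloid 45.4 CPM and DC 43.3 CPM, and these neighbors overlapped.

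Havcr2 was at 85.5, 137, 138.5 and 113 CPM in T cell EFF of the same libraries. DC came second with 78.8 CPM (60.4 to 93.1 CPM over libraries), which overlapped T cell EFF at its upper end. Within each library T cell EFF was above DC. T cell MEM had 60.0 CPM, Myeloid 53.2 CPM, ILC 38.1 CPM, NK cells 24.6 CPM and NKT 24.1 CPM, and every neighboring pair among these overlapped. No Havcr2 UMI was found in B cells or T cell Naive.

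Cd160 was at 54.2, 57.1, 77.2 and 69.6 CPM in T cell EFF. ILC had 47.3 CPM, with no library reaching the lowest T cell EFF library, and did not differ from T cell MEM (45.4 CPM) beyond the spread. In M2, T cell MEM (59.8 CPM) was above T cell EFF. NKT (23.6 CPM) and NK cells (20.9 CPM) overlapped, and Myeloid (10.1 CPM) lay below them. Of all Cd160 UMIs, 37.0% lay in ILC and 40.0% in T cell EFF.

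Cd200r1 was at 20.2, 40.6, 54.3 and 20.7 CPM in NKT cells of the libraries in this order. Myeloid cells had 20.3, 27.7, 35.9 and 30.2 CPM, so the 2 labels overlapped and changed places between libraries. T cell MEM (18.9 CPM), DC (18.1 CPM), T cells (17.1 CPM) and T cell EFF (10.95 CPM) followed, each overlapping its neighbor. The paralogs Cd200r2, Cd200r3 and Cd200r4 are separate rows of the table, and reads shared between them and Cd200r1 could not be traced.

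Btla was at 79.2, 108, 87.0 and 76.1 CPM in DC, in the same order of libraries. B cells came next at 33.9 CPM (16.5 to 46.7 CPM over libraries, 124 cells in all) and did not overlap DC. T cells had 18.8 CPM, T cell Naive 18.4 CPM, NKT 10.96 CPM, T cell MEM 7.98 CPM and T cell EFF 5.38 CPM, with overlap at each step. T cell EFF, the label with the highest Pdcd1, was thus, pooled over libraries, the lowest of the 5 T cell labels for Btla, although it overlapped T cell MEM.

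To set these orders against the other genes, a gene was called between 2 labels when log2(CPM + 1) differed by more than 2-fold in the same direction in all 4 libraries, among genes of at least 10 CPM on one side. T cell EFF was above NK cells for Pdcd1, Lag3, Havcr2 and Cd160, each with at least 10 CPM in both labels when pooled (Pdcd1 was at 9.05 CPM in NK cells of M2 and at 5.01 CPM in those of M6), in a comparison where 3.2% of 7999 genes were called higher and 2.33% lower. The log2 differences were 5.65 for Pdcd1, 2.47 for Lag3, 2.24 for Havcr2 and 1.61 for Cd160. Cd200r1 (2.31) passed the minimum only through T cell EFF, and Btla did not pass it. ILC was above NK cells for Pdcd1 (log2 difference 2.97) and Cd160 (1.14), against 1.97% of genes called higher and 0.0515% lower, while Lag3 (0.55) and Havcr2 (0.61) were not called. DC was above Myeloid for Btla, which passed the minimum only through DC, by 3.87 on the log2 scale (3.32 to 4.60 over libraries), against 3.52% of genes called higher and 5.14% lower.

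Within the T cell labels the differences were smaller. None of the 5 tested receptors was called between T cell EFF and T cell MEM, where 3.2% of 8043 genes were called higher in T cell EFF and 0.522% lower, and the log2 differences ran from -0.74 for Cd200r1 to 0.99 for Havcr2. In contrast, all 6 cycling genes were called higher in T cell EFF (median log2 difference 3.41), and 4 of 9 tested progenitor genes were called lower. NKT was below T cell EFF for Havcr2 (log2 difference -2.27), against 2.2% of genes called lower and 2.26% higher. Cd200r1 was 1.54 higher in NKT on the log2 scale (0.93 to 2.13 over libraries) and was not called.

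Receptor transcripts outside the T cell labels were examined in cells with and without a UMI of the CD3 chains Cd3d, Cd3e or Cd3g, which form the T cell receptor complex. In Myeloid, 98.3% of Pdcd1 UMIs lay in the 991 cells that also had a CD3 UMI. Their level was 98.0 CPM (73.6 to 122 CPM over libraries), against 2.73 CPM (1.90 to 3.80 CPM) in the 1689 cells without one. Lag3 divided alike (69.0 and 7.78 CPM), and so did Cd160 (14.6 and 2.94 CPM). Havcr2 did not divide, at 53.3 CPM with and 53.2 CPM without a CD3 UMI, nor did Cd200r1, at 27.4 and 31.3 CPM. The cells with a CD3 UMI were also deeper (median 17781 against 5462 UMIs), and whether they were doublets or carried free RNA was not tested.

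**Figure D2:**
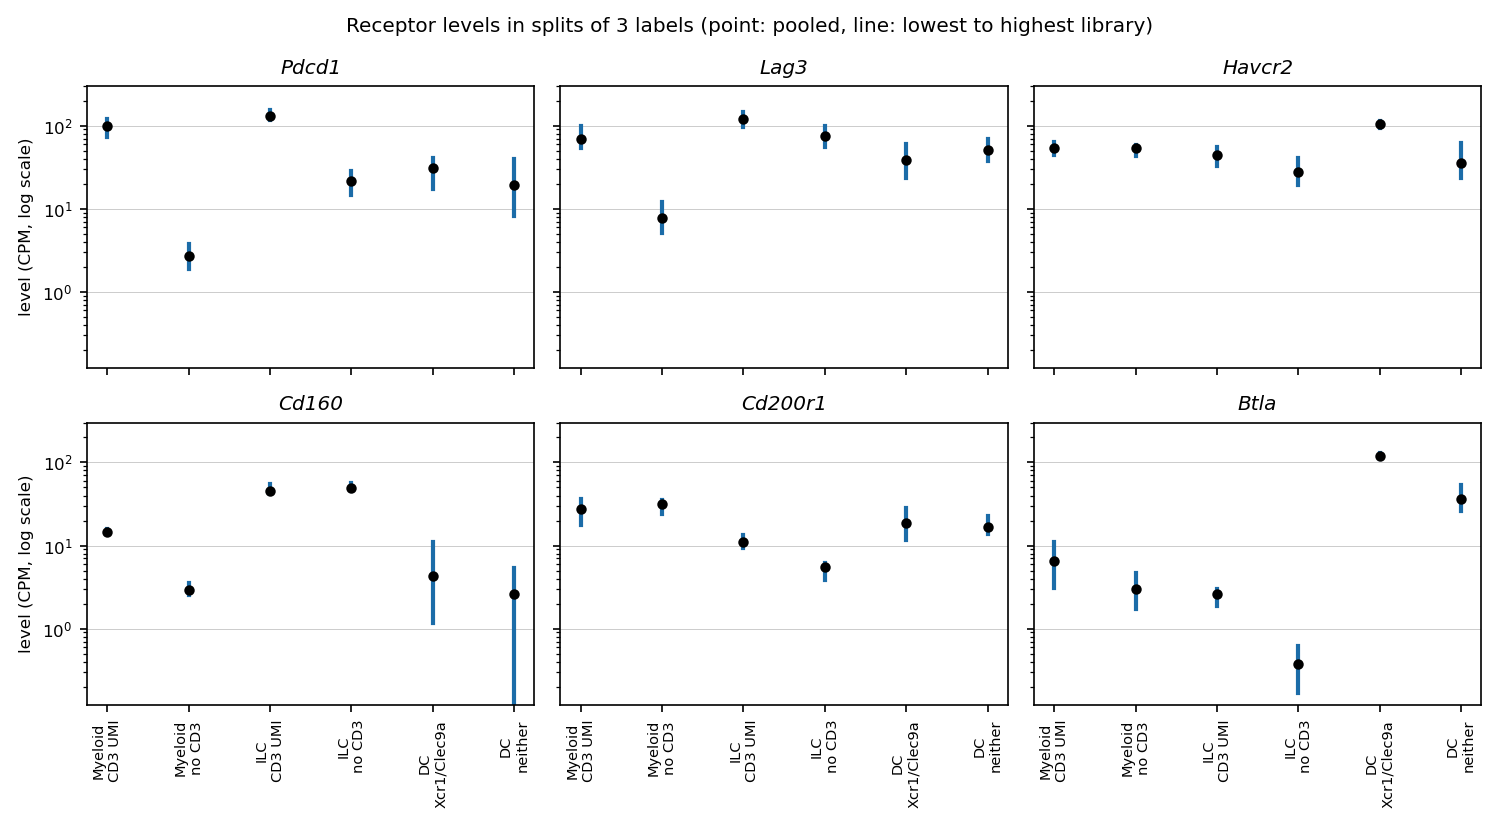
Receptor levels (CPM, log scale) in Myeloid and ILC cells with and without a CD3 UMI and in DC with and without a UMI of Xcr1 or Clec9a, with points for pooled levels and lines from the lowest to the highest library. A line that reaches the lower edge holds a library without a UMI. Pdcd1 is at 98.0 and 2.73 CPM in the Myeloid groups while Havcr2 is at 53.3 and 53.2 CPM, and Btla is higher in DC with Xcr1 or Clec9a.

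In ILC, Pdcd1 was at 129 CPM in the 2138 cells with a CD3 UMI and at 21.8 CPM in the 2490 cells without, and the library ranges did not overlap. Lag3 was at 120 and 75.2 CPM and Havcr2 at 44.8 and 27.6 CPM. Cd160 was at 45.7 CPM with and 49.8 CPM without a CD3 UMI, with overlapping ranges, so its presence in ILC did not go with T cell transcripts. In NK cells, Pdcd1 fell to 3.44 CPM where no CD3 UMI was found, whereas Lag3 (64.2 CPM), Havcr2 (22.5 CPM) and Cd160 (19.6 CPM) were still present.

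DC were divided by Xcr1 and Clec9a, markers of cross-presenting (type 1) conventional dendritic cells. Btla reached 120 CPM (109 to 131 CPM over libraries) in the 288 cells with a UMI of either gene and 36.7 CPM (26.0 to 54.1 CPM) in the other 268 cells. Havcr2 was at 104 CPM (93.9 to 113 CPM) and 35.7 CPM (23.5 to 61.9 CPM), also without overlap. Median depth was 13454 and 7655 UMIs in the 2 groups. Among Myeloid cells, the 293 with at least 10 UMIs of the mast cell genes Cpa3, Tpsb2 or Cma1 had 42.9 CPM of Cd200r1 (21.4 to 68.7 CPM over libraries), which overlapped the 29.05 CPM of cells with at least 10 C1q UMIs, a macrophage mark.

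For detection in single cells, each cell was thinned to 2000 UMIs so that depth was equal, and 696 shallower cells were left out. In T cell EFF, 65.1% of 3545 cells then had a Pdcd1 UMI (exact binomial 95% interval 63.5 to 66.7%), 53.6% a Lag3, 19.7% a Havcr2, 11.3% a Cd160, 2.03% a Cd200r1 and 1.47% a Btla UMI. Before thinning the shares were 87.5%, 86.6%, 52.2%, 37.4%, 11.6% and 6.14%. Stroma, which should lack all 6, gave 0.409%, 0.837%, 0.121%, 0.0639%, 0.0448% and 0.0128% at the same thinned depth. Original medians were 10049 UMIs in T cell EFF and 40692 UMIs in Stroma, so these shares need not be the background of shallower labels. In Stroma, 2747 cells had a UMI of Cd3d, Cd3e or Cd3g and held 54.9% of its Pdcd1 UMIs. All intervals cover counting error only.

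The order differed by cell label. Btla was detected in 16.1% of thinned DC (13.1 to 19.5%) and 6.25% of B cells (2.55 to 12.5%), while 0 of 4218 NK cells had a UMI, which at this depth allows a share of cells with a UMI of up to 0.0711%. Without thinning, 17 of 4398 NK cells had one. Cd200r1 was detected in 6.73% of NKT, 5.10% of Myeloid and 4.11% of T cell MEM. Pdcd1 was detected in 46.7% of T cell MEM, 24.97% of NKT and 9.21% of ILC, and Lag3 in 28.96%, 18.4% and 14.8% of the same labels. Pooled, Havcr2 was found in 11.5% of DC and 9.97% of Myeloid, against 6.65% of T cell MEM. The library range of T cell MEM (3.73 to 11.4%) overlapped those of DC (9.16 to 13.3%) and Myeloid (8.91 to 11.1%). By pooled level, T cell MEM (60.0 CPM) was above Myeloid (53.2 CPM).

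Cells were then counted by how many of the 6 receptors they carried. In T cell EFF, 83.9% had at least 1, 52.2% at least 2, 15.3% at least 3 (14.1 to 16.5%) and 1.83% at least 4, and 0 of 3545 cells had 5, which allows a share of up to 0.0846% at this depth. That limit is on cells with UMIs of 5 receptors among 2000 and not on cells that express them. The share with at least 3 was highest in M2 (21.8%), as were the levels of Pdcd1, and stood at 10.9% in M1, 15.9% in M5 and 12.005% in M6. It was 5.599% in T cell MEM, 1.96% in NKT, 0.929% in ILC and 0.0948% in NK cells. On average a T cell EFF cell carried 1.53 receptors and a T cell MEM cell 0.944.

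**Figure D3:**
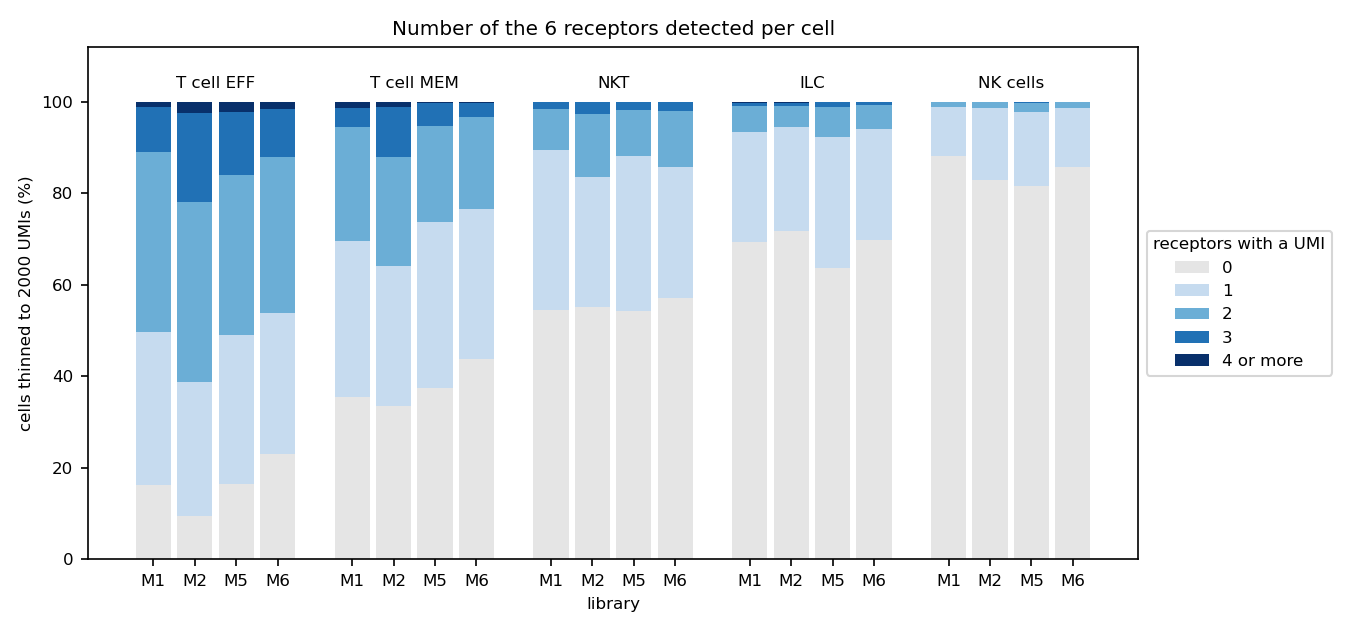
Share of cells (%) with 0, 1, 2, 3, or 4 or more of the 6 receptors at 2000 UMIs per cell, by label and library. In T cell EFF the share with at least 3 runs from 10.9% (M1) to 21.8% (M2), and NK cells mostly carry none.

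The most frequent combination in T cell EFF was Pdcd1 with Lag3 (24.3% of cells), followed by Pdcd1 alone (18.8%), none (16.1%), Lag3 alone (9.56%) and Pdcd1 with Lag3 and Havcr2 (7.98%). Pdcd1, Lag3, Havcr2 and Cd160 together were seen in 54 cells (1.52%). In T cell MEM, none was most frequent (445 of 1143 cells), then Pdcd1 alone (22.1%) and Pdcd1 with Lag3 (15.5%).

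Joint detection was set against the number of cells expected from the 2 single shares, for pairs with at least 5 expected cells. This ratio cannot exceed 1 divided by the larger share, so it is bounded more tightly where a receptor is common. Lag3 and Havcr2 had the highest ratio in T cell EFF, with 466 cells observed and 374 expected (ratio 1.24, interval 1.14 to 1.35). M1 and M2 had 1.15 and 1.18, and M5 and M6 had 1.296 and 1.27. Lag3 and Cd160 had 1.20, Pdcd1 and Havcr2 1.11, and Pdcd1 and Lag3 1.11 (1.06 to 1.15).

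Of the 14 pairs with enough cells, 9 were over 1 and 5 were over 1 in all 4 libraries, a count that the filter on cells moved (7 of 14 without cells of a high doublet score). Pairs with Btla ran the other way, with ratios from 0.680 with Cd160 to 0.754 with Lag3, and their intervals included 1. These intervals take the expected number as fixed. As shares, Pdcd1 was in 46.2% of Btla-positive cells (32.2 to 60.5%) and 65.4% of Btla-negative cells (63.8 to 67.0%). In M1 these shares were level (70.0% and 68.9%). For Lag3, Havcr2 and Cd160 the intervals of the corresponding shares overlapped. Cd160 and Cd200r1 were found together in 2 cells where 8.14 were expected (ratio 0.246, interval 0.0297 to 0.886), both of them in M2.

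**Figure D4:**
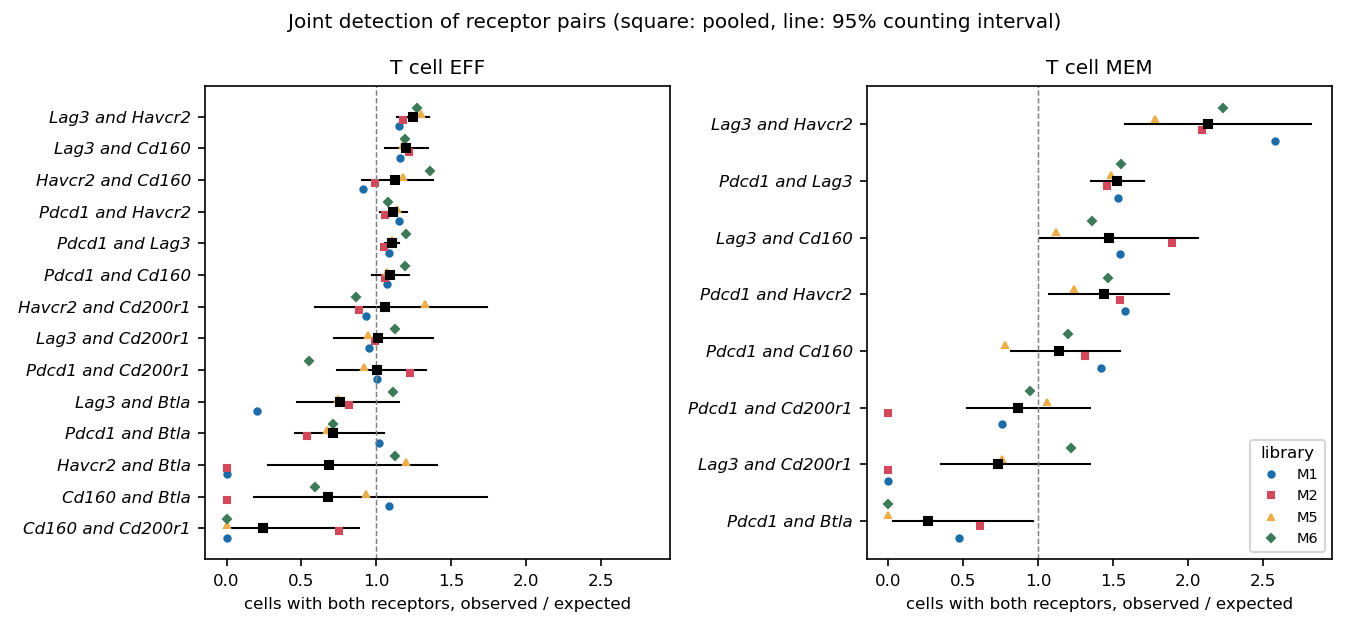
Cells with both receptors as observed over expected, for pairs with at least 5 expected cells in T cell EFF and T cell MEM, with squares for pooled ratios, lines for 95% counting intervals and colored symbols for libraries. Lag3 and Havcr2 lie highest in both labels (1.24 and 2.14), and the lowest pairs are Cd160 with Cd200r1 and Pdcd1 with Btla.

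In T cell MEM the ratio was 2.14 (1.58 to 2.82) for Lag3 and Havcr2, 1.53 (1.36 to 1.71) for Pdcd1 and Lag3 and 0.268 (0.0324 to 0.964) for Pdcd1 and Btla, the last resting on 2 cells. In ILC, Pdcd1 and Havcr2 had 2.78 (2.03 to 3.71). In NK cells, Lag3 and Havcr2 had 2.73 (1.82 to 3.94), and in ILC the same pair had 2.04 (1.53 to 2.66), so it was over 1 in each of these lymphocyte labels. NKT had 1.76 for this pair, with an interval that included 1 (0.844 to 3.21). In Myeloid the pair had 1.42 (0.812 to 2.30), and Pdcd1 and Lag3 had 3.47 (2.18 to 5.24). Cells with a CD3 UMI held 98.3% of Pdcd1 UMIs in Myeloid and 90.3% in ILC. The part of such mixed transcripts in these ratios was not tested. When T cell EFF was limited to cells with CD3 and CD8 transcripts and without Cd4, the ratio for Lag3 and Havcr2 was 1.17 and that for Pdcd1 and Lag3 was 1.07.

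The same was asked of all genes detected in at least 5% of thinned T cell EFF cells, calling a gene when its share in receptor-positive over receptor-negative cells was over 1.25 in all 4 libraries. Beside Lag3, Havcr2 (ratio 1.73) and Cd160 (1.55) were called, where 0.731% of 4791 genes were called, and 99.8% of genes had a lower ratio than Havcr2. Cd200r1 and Btla were under the 5% minimum and were not tested beside the others. Of the other 3 tested receptors, none was called beside Pdcd1 (0.731% of genes called), Havcr2 (0.981%) or Cd160 (0.292%), and none of 4 was called beside Cd200r1 (1.25%) or Btla (2.02%). The ratio cannot exceed 1 divided by the share in receptor-negative cells, so a common gene is called less readily. Lag3 was in 66.7% of Havcr2-positive and 50.4% of Havcr2-negative cells, and in 64.1% of Cd160-positive and 52.2% of Cd160-negative cells. Both differences held in all 4 libraries. Beside Pdcd1, the ratios of Lag3 (1.38), Havcr2 (1.41) and Cd160 (1.301) were over 1 in all 4 libraries.

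Of 67 tested genes of the other lists, 7 were called beside Havcr2 (10.45%, against 0.981% of all genes). They were Entpd1 (2.07), Vsir (1.87), which encodes the inhibitory receptor VISTA, the chemokine genes Ccl3 (2.13), Ccl4 (1.71) and Ccl5 (1.403), and the granzyme genes Gzmc (1.51) and Gzmb (1.27). Beside Pdcd1, 2 of the 67 were called, Klrc1 (ratio 1.38) and Klre1 (1.57), and beside Lag3 the 2 called were Klre1 (1.48) and Cd200 (1.46). Klre1 was on the list of NK cell markers. Beside Cd160, 2 were called, Xcl1 (2.33), which encodes a chemokine that attracts cross-presenting dendritic cells, and Ccr7 (1.59). The 3 calls beside Cd200r1 and 2 beside Btla rest on 72 and 52 receptor-positive cells, and the share beside Btla (2.99%) was near the 2.02% of all genes.

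T cell EFF cells with at least 3 receptors (543 cells) were compared with cells that had none (572 cells), calling a gene when its share of cells differed over 1.5-fold in all 4 libraries. Of 4788 other genes, 54 (1.13%) were called higher and 33 (0.689%) lower. A gene without a UMI in the receptor-free cells of a library had no ratio there and could not be called higher. Cd8a rose from 46.0% to 83.2% of cells and Cd8b1, the other CD8 chain, from 40.4% to 71.8%. Klrc1, which encodes the inhibitory receptor NKG2A, rose from 38.5% to 70.9%, and Fasl, a death ligand, from 13.5% to 25.05%. Entpd1, the ectonucleotidase CD39, was at 20.1% against 7.87% and Prf1, perforin, at 74.8% against 37.6%, and neither was called. Gzma, another effector gene, ran the other way without being called (17.1% against 29.4%, lower in all 4 libraries), and the NK cell marker Klre1 was at 30.9% against 13.99%.

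By group, 1 of 6 detected genes on the list of 13 other inhibitory receptors (Klrc1) and 1 of 10 effector genes (Fasl) were called higher. Their lists had median ratios of 1.63 and 1.61 beside 0.994 over all genes. The first list included Entpd1, an ectonucleotidase gene. Its genes under the 5% minimum are not in that median. Among them, Klrg1 was in 4.37% of cells with 0 receptors and 0.418% of cells with 3, and Tigit in 0.699% and 1.05%. None of 9 terminal or exhaustion factors was called (median ratio 1.06), and Tox, a factor of the exhausted state, was at 14.2% against 13.99%. Between these groups, Tox was at 17.4% in cells with 1 receptor and 19.2% in cells with 2. Members of this list went both ways. Nr4a1 was lower in all 4 libraries (8.47% against 18.2% pooled). Higher in all 4 were Nr4a2 (56.4% against 37.9%), Id2 (78.6% against 54.4%) and Nfatc1 (18.0% against 12.8%). None of the 6 cycling genes was called (median ratio 0.638), with Mki67 at 15.1% against 23.1%. Of 10 ligand genes and 11 signaling partners, 8 and 11 were detected and none was called in either direction (median ratios 0.922 and 1.05). Of 3 detected progenitor genes none was called (median ratio 1.09).

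The highest ratios among all genes were those of Slc37a2 (13.4% against 2.62%), Cnih2 (11.05% against 2.45%), Tmem163 (10.7% against 2.45%), Fcrl6 (9.76% against 2.27%) and Cd38 (11.05% against 2.62%), of which only Slc37a2 was called. The lowest were those of Cxcr3, a chemokine receptor (2.58% against 9.97%), Ptgs2, the inducible cyclooxygenase (2.58% against 9.79%), Timp2, Maf and Anxa3, of which all but Maf were called. T cell markers moved with the number of receptors without being called, with Cd3e at 71.6% against 53.0%. Foxp3 was found in 9.27% of cells without a receptor UMI and 1.67% of cells with 3, and Cd4 in 7.17% and 1.05%. Of the 65 cells with 4 or more, 2 had Foxp3 and 2 had Cd4 (3.08% each). The part of such cells in these differences was not tested. Lyz2, a myeloid gene, was at 16.9% against 19.6%.

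Cells of the 5 T cell labels were therefore also divided by transcripts, all with a CD3 UMI, into CD8 cells (Cd8a or Cd8b1 without Cd4, 3921 cells), CD4 cells (Cd4 without CD8 chains or Foxp3, 401 cells) and Foxp3 cells (Foxp3 without CD8 chains, 600 cells). Pdcd1 had 629 CPM in CD8 cells (539 to 800 CPM over libraries), 259 CPM in CD4 cells (193 to 281 CPM) and 152 CPM in Foxp3 cells (65.1 to 168 CPM), and no library range overlapped. Lag3 had 421, 116 and 158 CPM in the same order, with CD8 overlapping Foxp3 through M2 (379 CPM). Havcr2 had 122, 12.6 and 25.02 CPM, and Cd160 had 70.1, 6.10 and 2.75 CPM. Cd200r1 and Btla ran the other way, with 10.4, 27.9 and 31.7 CPM for Cd200r1 and 4.44, 20.9 and 15.8 CPM for Btla.

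**Figure D5:**
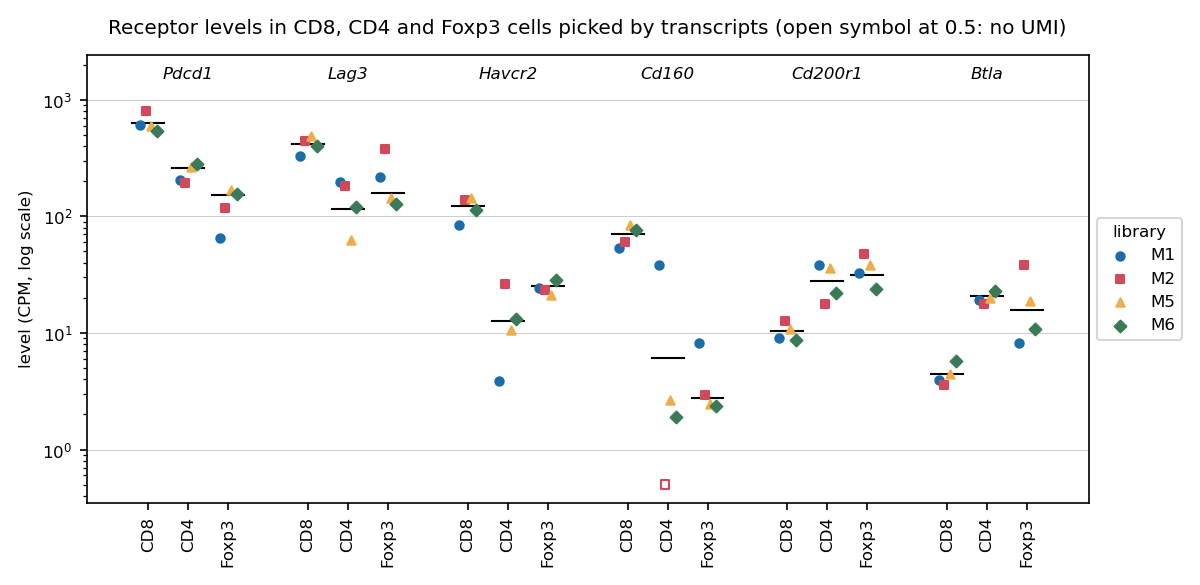
Receptor levels (CPM, log scale) in CD8, CD4 and Foxp3 cells of the T cell labels, with 1 symbol per library and a bar for the pooled level. Pdcd1, Lag3, Havcr2 and Cd160 are highest in CD8 cells (629, 421, 122 and 70.1 CPM), while Cd200r1 and Btla are lowest there.

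Foxp3 cells were below CD8 cells in all 4 libraries for Pdcd1 (log2 difference -2.04), Havcr2 (-2.24) and Cd160 (-4.24), against 1.82% of 8065 genes called lower. They were above CD8 cells for Cd200r1 (1.52), against 2.74% called higher. CD4 cells were below CD8 cells for Havcr2 (-3.17), against 3.09% called lower, and above them for Btla (2.01), against 1.73% called higher. Cd160 passed the minimum only through CD8 cells and Btla only through CD4 cells. No receptor was called between Foxp3 and CD4 cells, where 0.658% of 7755 genes were called higher and 0.58% lower. The CD4 values of Cd160 rest on 14 UMIs, and M1 alone had 38.5 CPM. Those of Havcr2 rest on 29 UMIs (1 in M1) and those of Btla on 48 (4 in M2). At least 3 receptors were found in 15.2% of CD8 cells, 0.519% of CD4 cells (0.0630 to 1.86%) and 1.53% of Foxp3 cells (0.702 to 2.89%). Depth before thinning was a median of 9053, 5003 and 5433 UMIs, and M1 and M2 together held only 81 of the Foxp3 cells.

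Across 34 units of a label in a library with at least 50 cells, the genes with the pattern most like each receptor were named by Pearson's r of log2(CPM + 1), as a description among 12870 genes. They were Trac (0.980), Themis (0.973) and Uhrf2 (0.964) for Pdcd1, and Slc2a3 (0.959), Cd226 (0.952) and Adcy7 (0.952) for Lag3. Jaml (0.937), Smim3 (0.928) and Entpd1 (0.905) were nearest to Havcr2, and Klrc1 (0.969), Klrc2 (0.969) and Nrgn (0.958) to Cd160. Il7r (0.931), Rab11fip1 (0.930) and Slco3a1 (0.917) were nearest to Cd200r1, and Tbc1d4 (0.940), Gdi2 (0.936) and Ppm1m (0.925) to Btla. Units of one label share its cell type and those of one library its depth. Between receptors r was highest for Pdcd1 and Lag3 (0.897) and lowest for Cd160 and Btla (-0.08).

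Ligands of the receptors were read from a list of 10 genes. Cd274 (PD-L1) was highest in Myeloid in all 4 libraries, at 168 CPM in M1, 269 CPM in M2, 446 CPM in M5 and 497 CPM in M6, and stood at 67.8 CPM in T cell EFF. Pdcd1lg2 (PD-L2) was highest in ILC (108 CPM pooled, 88.6 to 119 CPM over libraries), which overlapped T cell EFF (86.3 CPM) but was above it within each library. Lgals9 (galectin-9) was highest in Myeloid (72.7 CPM). H2-Aa and H2-Ab1, genes of MHC class II, which LAG-3 binds, were highest pooled in DC (5769 and 4507 CPM), with B cells next. Cd200 was highest in T cell EFF (76.5 CPM). Pooled over libraries, T cell EFF had the fewest Cd200r1 CPM among T cell EFF, T cell MEM, NKT and T cells. In M2, however, T cell MEM was lower (10.9 against 12.5 CPM), and in M6 T cells were lower (9.29 against 10.4 CPM). T cells of M1 and all T cell Naive cells had no Cd200r1 UMI. Tnfrsf14 (HVEM), the ligand shared by CD160 and BTLA, was highest pooled in T cell Naive (18.4 CPM, from 4 UMIs) and T cells (17.96 CPM, from 21 UMIs), although NKT was highest in M1 and Myeloid in M2, and was at 5.42 CPM in T cell EFF and 9.24 CPM in Myeloid, and Fgl1, a ligand of LAG-3, was at 0.0202 CPM in Stroma and had no UMI in any other label. None of 8 tested ligands and none of 11 signaling partners was called between T cell EFF and T cell MEM, where 3.2% of all genes were called higher and 0.522% lower.

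Tnfrsf18 (GITR), the other target of the bispecific, was not distributed like Pdcd1. It had 340 CPM in T cell EFF (277 to 400 CPM over libraries), 750 CPM in NKT (567 to 881 CPM) and 725 CPM in T cells (665 to 902 CPM), so the labels with the most regulatory T cell transcripts lay above T cell EFF without overlap. Pdcd1, in contrast, was higher in T cell EFF than in NKT and T cells, also without overlap. Ctla4, another inhibitory receptor, was also lower in T cell EFF (317 CPM) than in NKT (839 CPM) and T cells (942 CPM). It was not called between NKT and T cell EFF. Ctla4 is itself 1 of the regulatory T cell markers by which these labels were described. Of 10 tested genes on the list of other inhibitory receptors, 2 were called higher (Klrg1 and Cd5) and 1 lower (Lair1) in NKT than in T cell EFF. Over all genes, 2.26% were called higher and 2.2% lower.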

How the data were processed

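CD45+ cells were profiled with 10x 3′ chemistry, and the authors made the counts with Cell Ranger 3.0.2 against mm10 (GRCm38), keeping cells over 500 UMIs. The deposited table holds raw UMI counts per gene and cell, and a metadata table gives library and cell label. Labels came from correlation with ImmGen profiles. All intervals are exact at 95% (binomial for shares, Poisson for levels) and cover counting error only.

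CPM was computed from summed counts per label and library. Shares used cells thinned to 2000 UMIs without replacement. For a share of 0, the upper limit was set at 3 counts. Doublets were not removed from the main values. Scrublet (scanpy 1.11.5) scored each library at an expected rate of 0.06, and 606 cells (1.78%) were over 0.25. Python 3.11.15, numpy 2.4.6 and scipy 1.17.1 were used. The thinning, the detection ratio and the CPM comparison were tested on simulated counts, and the other steps were not. The 4 libraries could not be tied to the 6 labeled samples, so the planned treatment comparison was not run. Libraries without a group were not taken as replicates, so labels were compared within each library without a test, and calls are descriptions of 4 libraries.

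The receptors and gene lists, the motifs, the thresholds of 1.25, 1.5 and 2-fold and the divisions by CD3, Xcr1, Clec9a, C1q and mast cell genes were chosen with earlier results of these data known. Named genes were the 3 most correlated with each receptor, the 5 highest and 5 lowest ratios by receptor number, and members of the lists (other inhibitory receptors, ligands, signaling partners, terminal or exhaustion factors, progenitor, effector and cycling genes and the targets of the drug). Alternatives were other thinning depths, cell filters, each library left out, equal weight per library, another denominator, and another pseudocount (5 CPM) or minimum (5000 UMIs) for the correlations.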

Additional observations from a re-analysis of the deposited data

How the results depend on the processing

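No paired analysis was possible because the planned comparison was between treatments, which the names M1, M2, M5 and M6 do not give. This limit concerns the treatment comparison only, and cell labels were compared within each library, without a test. Shares in T cell EFF depend on depth. For Pdcd1, Lag3, Havcr2, Cd160, Cd200r1 and Btla they were 44.7%, 35.4%, 12.03%, 6.22%, 1.05% and 0.853% at 1000 UMIs, 79.2%, 71.4%, 31.9%, 20.2%, 3.59% and 1.93% at 4000 UMIs, and 87.5%, 86.6%, 52.2%, 37.4%, 11.6% and 6.14% without thinning. The share with at least 3 receptors was 5.12%, 34.1% and 64.2% at these depths, 13.97% without cells over 10% mitochondrial UMIs, and 16.8% in cells with CD3 and CD8 transcripts and no Cd4, where Pdcd1, Lag3 and Havcr2 were at 69.7%, 57.2% and 21.2%. Lag3 and Havcr2 had a ratio of 1.36 at 1000 UMIs, 1.13 at 4000 UMIs and 1.09 without thinning, and Pdcd1 and Lag3 1.06 without thinning. Leaving out each library in turn gave 62.1 to 67.7% for Pdcd1, 51.1 to 55.2% for Lag3, 18.2 to 20.6% for Havcr2, 10.7 to 11.9% for Cd160, 1.82 to 2.16% for Cd200r1, 1.35 to 1.56% for Btla and 13.3 to 16.6% for at least 3 receptors, the last lowest without M2. The ratios then ran from 1.08 to 1.12 for Pdcd1 and Lag3, 1.10 to 1.12 for Pdcd1 and Havcr2 and 1.22 to 1.26 for Lag3 and Havcr2. The number of receptors highest in a T cell label was 5, with NKT counted among them, and 4 or 5 with a library left out, since Cd200r1 was highest in Myeloid without M5. It was also 4 without cells with at least 2 myeloid UMIs. Removing cells with a scrublet score over 0.25 or with at least 2 myeloid UMIs moved none of the T cell EFF shares or the 3 ratios out of their intervals. Pairs over 1 in T cell EFF numbered 9 of 14 in the main setting, 7 of 14 without cells over that score, 7 of 13 without cells with myeloid UMIs or without M2, 8 of 13 without M5 or M6, 8 of 14 at 4000 UMIs, 9 of 10 at 1000 UMIs and 11 of 14 without thinning. Of the 3 genes nearest to Btla, 1 stayed at a pseudocount of 5 CPM.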
